A study of Mus musculus with 3 samples.

Results

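The 10 genes described here belong to the BCL2 family, whose proteins decide at the mitochondrial outer membrane whether a cell lives or dies. They were chosen by symbol: *Bcl2*, *Bcl2l1*, *Bcl2l11*, *Mcl1*, *Bak1*, *Bid*, *Bmf*, *Bbc3*, *Bcl2a1b* and *Bcl2a1d*. All 10 were found once each among the 33696 genes of the deposited matrices. They were measured by single-cell RNA-seq in 3 libraries of tumor-infiltrating T cells, one for each cytokine treatment, and no treatment had a second library.

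The T cells were pmel CD8+ cells, which carry a transgenic receptor for the melanoma antigen gp100 and the congenic mark Thy1.1. They were activated with gp100 peptide, preconditioned with a cytokine and transferred into irradiated C57BL/6 mice bearing subcutaneous tumors of B16F10, a mouse melanoma line that expresses gp100. The sIL-2 library came from mice given cells preconditioned with sIL-2, a high-affinity variant of IL-2, and then sIL-2 in vivo. The IL-2/21-Trikine library came from mice given cells preconditioned with the Trikine, and then the Trikine in vivo. The Trikine is a single protein that joins sIL-2 to a binder of the IL-21 receptor so as to pull both receptors together. The sIL-2 + IL-21 library came from cells preconditioned with both cytokines, and these mice then received sIL-2 alone. By this design the sIL-2 + IL-21 and sIL-2 libraries differed in preconditioning and shared the cytokine given in vivo. The Trikine library differed from both others in preconditioning and in vivo dosing at the same time. All mice followed the low-dose regimen, and the tumors were taken on day 18 for sorting of live cells positive for Thy1.1 and CD8. Per the study's methods the C57BL/6 mice were bought at a few weeks of age. The number of tumors pooled into each library was not given in the sources used here. Because each treatment was 1 library, no p-value is given, and every interval below is a 95% interval of counting error alone. It does not cover the spread between animals or between cells.

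Pro-survival members of the family (BCL-2, BCL-XL, MCL-1 and A1) hold the pore-forming effectors BAK and BAX in check. BH3-only members (BIM, BID, BMF and PUMA) sense stress or loss of growth signals and release the effectors, either by occupying the pro-survival proteins or by engaging BAK and BAX directly. In T cells, cytokines that signal through the common gamma chain are known to sustain *Bcl2* and *Mcl1*, BIM is known as the main killer of activated T cells at the end of a response, and A1 is known to be induced by antigen receptor and NF-kB signals.

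After removal of cells outside 500 to 120000 UMIs (unique molecular identifiers, one per captured transcript) or above 20% mitochondrial UMIs, the sIL-2, Trikine and sIL-2 + IL-21 libraries held 7760, 13299 and 9798 cells. Their summed depth was 130200802, 166772854 and 168041089 UMIs, with medians of 12883, 10254 and 14056 UMIs per cell. Levels are given as CPM, the UMIs of a gene per 1000000 UMIs of the cells summed. All 6 T cell markers were detected, with summed levels of 2740 to 3531 CPM. The 10 myeloid markers summed to 23.1 to 35.1 CPM, the 5 melanoma markers to 2.22 to 8.82 CPM, the 3 B cell markers to 1.71 to 2.38 CPM and the 2 NK cell markers to 4.35 to 8.60 CPM. The 4 globin genes summed to 68.7 CPM in the sIL-2 library against 0.120 and 0.476 CPM in the Trikine and sIL-2 + IL-21 libraries, and their part in the results was not tested. The libraries shared 18 to 41 cell barcodes in pairs, and none was in all 3. No doublet caller was run.

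Across the libraries, the sIL-2 + IL-21 library had the lowest levels of *Bcl2*, *Bcl2l11*, *Mcl1* and *Bcl2a1b* and the highest level of *Bak1*. *Bid* and *Bcl2a1d* were also lowest there, with intervals that overlapped those of the Trikine library. The sIL-2 library had the highest level of every member except *Bak1*, though for *Bcl2*, *Bid* and *Bmf* its interval overlapped that of the Trikine library. As summed, the Trikine library was close to the sIL-2 library in its *Bcl2* level and to the sIL-2 + IL-21 library in its *Bcl2a1d* level. The plot of members by library shows these orders.

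**Figure D1:**
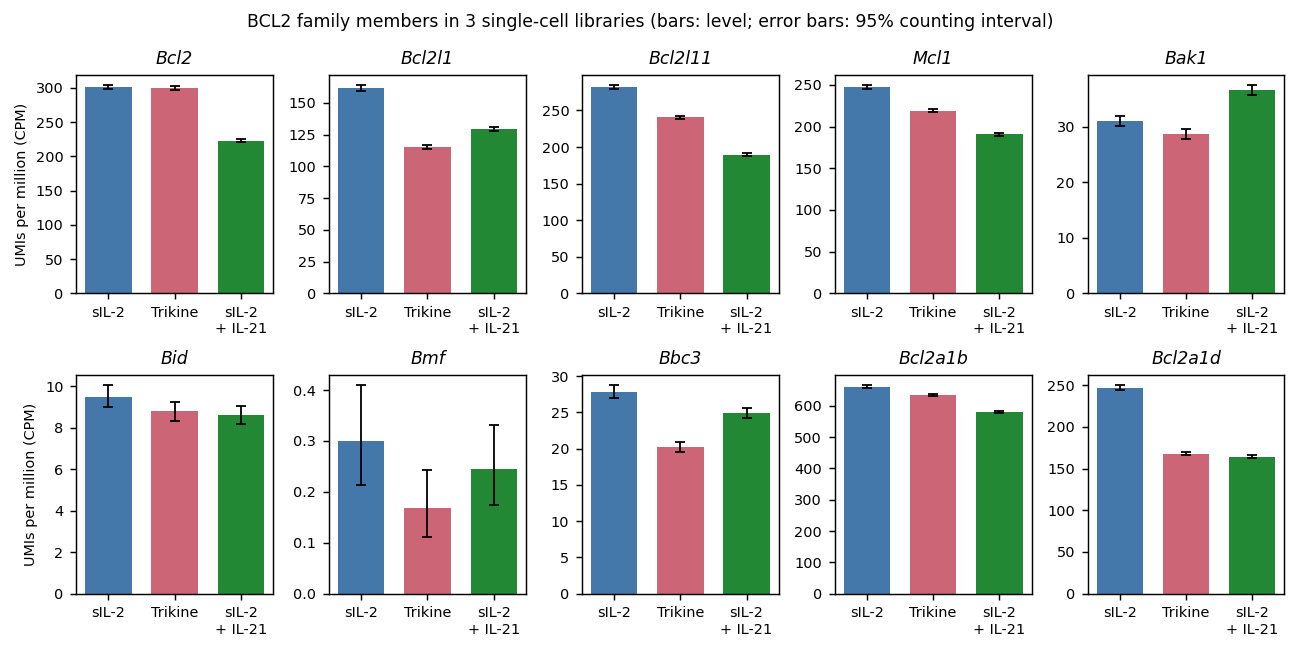
Level of each of the 10 BCL2 family members (y axis, CPM) in each of the 3 libraries; each panel has its own scale from 0, bars are the level of the 1 library of a treatment and error bars its 95% counting interval. *Bcl2* was 301, 299.8 and 223 CPM, while *Bak1* was highest, at 36.6 CPM, in the sIL-2 + IL-21 library.

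*Bcl2* (ENSMUSG00000057329) encodes the founding pro-survival protein of the family. Its level was 301 CPM (95% interval 298 to 304) in the sIL-2 library, 299.8 CPM (297 to 302) in the Trikine library and 223 CPM (220.4 to 225) in the sIL-2 + IL-21 library. The first and second of these overlapped within counting error, and the third lay below both. The Trikine to sIL-2 log2 ratio was 0.13 with each cell weighted equally and -0.13 when cells were compared within bins of UMIs per cell. The log2 ratio of the sIL-2 + IL-21 library to the sIL-2 library was -0.44 (-0.46 to -0.42). *Bcl2l1* (ENSMUSG00000007659), which encodes BCL-XL, had another order. It was at 162 CPM (159.8 to 164) with sIL-2, 115 CPM (114 to 117) with Trikine and 129 CPM (128 to 131) with sIL-2 + IL-21. No intervals overlapped, and the Trikine to sIL-2 log2 ratio was -0.49 (-0.52 to -0.46), or -0.30 when each cell was weighted equally.

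*Mcl1* (ENSMUSG00000038612) encodes a short-lived pro-survival protein on which lymphocytes depend throughout life. Its levels formed 3 separate steps of 247 CPM (244 to 249.9) with sIL-2, 219 CPM (217 to 221) with Trikine and 191 CPM (189 to 193) with sIL-2 + IL-21. The largest gap, between the sIL-2 + IL-21 and sIL-2 libraries, was a log2 ratio of -0.37 (-0.40 to -0.35).

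*Bcl2a1b* (ENSMUSG00000089929) and *Bcl2a1d* (ENSMUSG00000099974) are 2 of the mouse copies of the gene for A1, a pro-survival protein. *Bcl2a1b* was at 661 CPM (656 to 665) with sIL-2, 635 CPM (631 to 639) with Trikine and 580.2 CPM (577 to 584) with sIL-2 + IL-21, a span of 1.14-fold. *Bcl2a1d* was at 247 CPM (245 to 249.9) with sIL-2, 168 CPM (166 to 169.9) with Trikine and 164 CPM (162 to 166) with sIL-2 + IL-21, a span of 1.51-fold. The copies thus differed in how far the sIL-2 library stood above the others. They are nearly the same in sequence, and the split of reads between them is uncertain. Of the 817 aligned bases of the reference transcripts, 810 (99.1%) were identical, and 57.6% of the 50-base windows of *Bcl2a1b* and 54.3% of those of *Bcl2a1d* occurred unchanged in the other copy. Reads that fit more than 1 gene are not counted by the software used. With the UMIs of *Bcl2a1a*, *Bcl2a1b*, *Bcl2a1c* and *Bcl2a1d* added up, the Trikine to sIL-2 log2 ratio was -0.18 and the sIL-2 + IL-21 to sIL-2 ratio -0.29, against -0.56 and -0.59 for *Bcl2a1d* alone.

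The likeness of the copies extends upstream. Stretches of the 250 bases before the start sites are shown here from the RefSeq promoter table (build GRCm38.p6), which held all 10 members. Only the part spanned by the alignment is printed, and the ends outside it were left out. The *Bcl2a1d* stretch reaches its start site, while that of *Bcl2a1b* stops short of its own. Capitals mark bases that differ between the copies or have no partner in the other. Over 200 aligned bases, 2 differed, and 6 bases of *Bcl2a1b* inside the printed stretch had no partner. *Bcl2a1b* lies at chr9:89199023-89199228 on the plus strand and *Bcl2a1d* at chr9:88731851-88732050 on the minus strand.
Bcl2a1b: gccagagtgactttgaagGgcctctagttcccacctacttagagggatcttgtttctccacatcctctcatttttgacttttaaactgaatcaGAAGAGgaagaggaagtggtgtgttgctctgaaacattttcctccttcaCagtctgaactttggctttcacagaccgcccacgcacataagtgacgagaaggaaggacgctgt
Bcl2a1d: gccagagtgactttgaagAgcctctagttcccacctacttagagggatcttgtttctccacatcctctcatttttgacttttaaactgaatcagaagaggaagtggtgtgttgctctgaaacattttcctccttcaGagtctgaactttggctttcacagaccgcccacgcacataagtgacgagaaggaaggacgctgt

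*Bak1* (ENSMUSG00000057789) encodes BAK, the pore-forming effector among the members. It was at 31.0 CPM (30.1 to 32.0) with sIL-2, 28.7 CPM (27.9 to 29.5) with Trikine and 36.6 CPM (35.7 to 37.5) with sIL-2 + IL-21. It was the only member at the minimum level whose highest value was in the sIL-2 + IL-21 library, with a log2 ratio to sIL-2 of 0.24 (0.18 to 0.30) and a Trikine to sIL-2 + IL-21 ratio of -0.35 (-0.41 to -0.30). *Bax*, the gene for the other effector, is no member and had levels of 369, 335 and 388 CPM in the same order of libraries.

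*Bcl2l11* (ENSMUSG00000027381) encodes BIM, a BH3-only protein that binds all pro-survival members. It was at 282 CPM (279 to 285) with sIL-2, 241 CPM (238 to 243) with Trikine and 189.7 CPM (188 to 192) with sIL-2 + IL-21. No intervals overlapped. The Trikine to sIL-2 + IL-21 log2 ratio was 0.34 (0.32 to 0.36) and the sIL-2 + IL-21 to sIL-2 ratio -0.57 (-0.59 to -0.55). *Bcl2l11* and *Mcl1*, a death gene and a survival gene, thus had the same order of libraries. The levels of *Bcl2a1b* also had this order, as did those of *Bcl2*, *Bid* and *Bcl2a1d* with some intervals overlapping. *Bbc3* (ENSMUSG00000002083) encodes PUMA, a BH3-only protein known as a p53 and FOXO3 target. It was at 27.8 CPM (26.9 to 28.7) with sIL-2, 20.2 CPM (19.5 to 20.9) with Trikine and 24.9 CPM (24.2 to 25.7) with sIL-2 + IL-21. It was lowest with Trikine, with log2 ratios of -0.46 (-0.53 to -0.39) to sIL-2 and -0.30 (-0.37 to -0.24) to sIL-2 + IL-21.

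*Bid* (ENSMUSG00000004446) encodes the BH3-only protein that links caspase-8 and granzyme B to mitochondria. It was at 9.51 CPM (8.99 to 10.1) with sIL-2, 8.79 CPM (8.35 to 9.25) with Trikine and 8.60 CPM (8.16 to 9.05) with sIL-2 + IL-21. Neighbouring libraries overlapped, and the full span was 1.11-fold. *Bmf* (ENSMUSG00000040093), the gene for a BH3-only protein known to be held at the cytoskeleton, was close to absent from these data. Its 39, 28 and 41 UMIs gave 0.300, 0.168 and 0.244 CPM in the sIL-2, Trikine and sIL-2 + IL-21 libraries, with the Trikine interval (0.112 to 0.243) overlapping both others (0.213 to 0.409 and 0.175 to 0.331). Its ratios were too imprecise to order the libraries, the Trikine to sIL-2 log2 ratio of -0.84 having an interval from -1.59 to -0.10 and the Trikine to sIL-2 + IL-21 ratio of -0.54 one from -1.29 to 0.19.

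The number of members that differed between libraries was set against all genes. A gene was counted as past the fold when its absolute log2 ratio was at least 0.5, over the 8824 genes at 5 CPM or more in the mean of the libraries, which 9 of the 10 members reached (all but *Bmf*). Between Trikine and sIL-2, no member was higher, against 2.88% of all genes, and 1 (*Bcl2a1d*) was lower, against 5.81%. Trikine against sIL-2 + IL-21 gave 0 of 9 members either higher or lower, beside 3.51% and 3.58% of all genes. Between sIL-2 + IL-21 and sIL-2, no member was higher, against 5.79%, and 2 (*Bcl2l11* and *Bcl2a1d*) were lower, against 10.1%. Over only 9 members, counts of 0 to 2 are near these shares of all genes and are no result about the members. With median-of-ratios scaling, higher genes made up 50.8% of all genes past the fold between Trikine and sIL-2 in place of 33.1%, and 51.7% in place of 36.5% between sIL-2 + IL-21 and sIL-2. Under that scaling *Bcl2a1d* stood at -0.49 for Trikine to sIL-2 and *Bcl2l11* at -0.49 for sIL-2 + IL-21 to sIL-2, both just short of the fold, and the Trikine to sIL-2 ratios of *Bcl2* and *Bcl2a1b* changed sign, to 0.06 and 0.01. The median over the 9 members was -0.17, 0.03 and -0.32 for the 3 comparisons in this order, beside -0.08, 0.00 and -0.08 over all genes. The 3 comparisons share libraries and are not independent of each other.

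To ask whether the members followed the state of the cells, each cell with at least 2000 UMIs was thinned at random to 2000 UMIs, and 3 states that may overlap were set. Cells were called Tcf7-positive with at least 1 UMI of *Tcf7*, the gene for a transcription factor of stem-like T cells. They were called cycling with at least 4 UMIs over 24 genes of DNA replication and mitosis, and granzyme-positive with at least 3 UMIs over *Gzmc*, *Gzmd*, *Gzme*, *Gzmf* and *Gzmg*, which mark strongly activated cytotoxic cells. In the sIL-2, Trikine and sIL-2 + IL-21 libraries, 7494, 11524 and 9434 cells were deep enough, and 266, 1775 and 364 were left out.

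Tcf7-positive cells made up 12.5% (exact binomial interval 11.8 to 13.3), 11.9% (11.3 to 12.5) and 6.29% (5.80 to 6.79) of the cells. Cycling cells made up 12.9%, 23.0% and 31.0%, and granzyme-positive cells 25.2%, 23.1% and 54.1%. The sIL-2 + IL-21 library therefore had fewer Tcf7-positive and more cycling and granzyme-positive cells than the others. Without thinning, the shares were 38.8%, 34.5% and 19.5% Tcf7-positive, 52.6%, 51.2% and 67.1% cycling and 40.9%, 36.8% and 71.8% granzyme-positive. These unthinned shares are of all kept cells, including those under 2000 UMIs, of which the Trikine library had the most. They therefore differ from the thinned shares in the cells counted as well as in thinning. The lines between states cut through a range. Of the Tcf7-positive cells, 751, 1145 and 473 had exactly 1 UMI, and 239, 534 and 597 cells lay 1 UMI short of the cycling limit. Among the 17, 40 and 17 cells with myeloid markers, of which 10, 30 and 12 also had T cell markers, 2, 4 and 1 were Tcf7-positive (11.8%, 10.0% and 5.88%). Those shares, from few cells with median depths of 11449, 18489.5 and 11200.0 UMIs, lay close to the shares over all cells. With so few cells, most of them also with T cell markers, they cannot show whether a UMI of *Tcf7* marks expression. The Tcf7-positive shares are read only as a way to split the cells and not as expression. Depth went with state. The median was 29782, 20977 and 23844 UMIs in cycling cells against 12214, 9992 and 11542 in the others, and 9742, 9241 and 8020 in Tcf7-positive cells against 13926, 11946 and 15124 in the others. Granzyme-positive cells had medians of 22021.5, 17638 and 19585.5 UMIs against 11339.5, 10156 and 9897.5 in the others.

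Levels by state are shares of UMIs (CPM), and depth differed between states, so they do not give UMIs per cell. Tcf7-positive cells had higher levels of *Bcl2*, *Bcl2l11* and *Mcl1* than the other cells of their library, in each of the 3 libraries. *Bcl2* was at 391, 365 and 343 CPM in the Tcf7-positive cells of the sIL-2, Trikine and sIL-2 + IL-21 libraries, and at 289, 286 and 216 CPM in the other cells. The log2 ratios were 0.44 (0.39 to 0.48), 0.35 (0.31 to 0.39) and 0.67 (0.60 to 0.73). *Bcl2l11* was at 351, 296 and 302 CPM against 274, 232 and 185 CPM, with log2 ratios of 0.36, 0.35 and 0.71. The survival gene and the gene for its BH3-only antagonist were thus higher in the same cells by log2 ratios of similar size. *Mcl1* was higher by 0.24, 0.24 and 0.48.

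As summed, *Bcl2l1*, *Bcl2a1b* and *Bcl2a1d* differed little between Tcf7-positive and other cells, with log2 ratios between -0.10 and 0.11 in all 3 libraries. Among cells neither cycling nor granzyme-positive, all 3 genes were lower in Tcf7-positive cells in each library. There *Bcl2l1* was at 163, 116 and 134 CPM against 202, 130 and 174 CPM in Tcf7-negative cells. *Bcl2a1b* was at 674, 661 and 666 CPM against 780, 745 and 803 CPM. *Bcl2a1d* was at 247, 180 and 178 CPM against 297, 200 and 237 CPM. *Bak1* had ratios of -0.08, -0.15 and -0.20, and *Bid* of -0.29, -0.30 and -0.16, with intervals that mostly reached 0. *Bbc3* was at 0.12 and 0.16 in the sIL-2 and Trikine libraries and at 0.38 (0.17 to 0.58) in the sIL-2 + IL-21 library. No member was past the fold in all 3 libraries, in a state where 1.7% of all genes were higher and 1.11% lower by that measure. Within bins of UMIs per cell, an alternative chosen after the data were seen, the mean log2 ratio over the 3 libraries was 0.26 for *Bcl2* against 0.49 as summed, and 0.22 for *Bcl2l11* against 0.47. With at least 2 UMIs of *Tcf7* asked for, they were 0.58 and 0.62.

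As CPM, cycling cells had lower levels of every pro-survival member and a higher level of *Bak1*. Cycling cells held more UMIs per cell, so a lower CPM here does not mean fewer UMIs of a gene per cell. *Bcl2* was at 209, 228 and 175 CPM in cycling cells of the sIL-2, Trikine and sIL-2 + IL-21 libraries against 328, 331 and 259.8 CPM in the others. Its log2 ratios of -0.65 (-0.69 to -0.61), -0.54 (-0.57 to -0.51) and -0.57 (-0.60 to -0.54) made it the only member past the fold in all 3 libraries. By that measure 3.24% of all genes were lower and 9.22% higher in cycling cells. *Bcl2l11* had ratios of -0.57, -0.35 and -0.62, and *Mcl1* of -0.46, -0.34 and -0.36. *Bcl2a1b* and *Bcl2a1d* lay between -0.42 and -0.32 in all libraries. *Bcl2l1* was at -0.49 with sIL-2 but at -0.21 and -0.20 with Trikine and sIL-2 + IL-21.

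*Bak1* differed the other way, at 38.3, 33.8 and 41.3 CPM in cycling cells against 28.8, 25.9 and 32.8 CPM in the others, with log2 ratios of 0.41 (0.31 to 0.51), 0.38 (0.30 to 0.47) and 0.34 (0.26 to 0.41). *Bbc3* was lower by log2 ratios of -0.27, -0.14 and -0.47. *Bid* had no common direction, at -0.02, -0.25 and 0.15. The median over the 9 members was -0.40, -0.34 and -0.36 in the 3 libraries, beside -0.01, 0.02 and 0.01 over all genes. Depth moved with these differences. Within bins of UMIs per cell, the mean ratio was -0.26 for *Bcl2*, -0.18 for *Bcl2l11*, -0.19 for *Mcl1* and 0.22 for *Bak1*, so that no member was past the fold, while *Bcl2a1b* and *Bcl2a1d* kept ratios of -0.36 and -0.33.

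**Figure D2:**
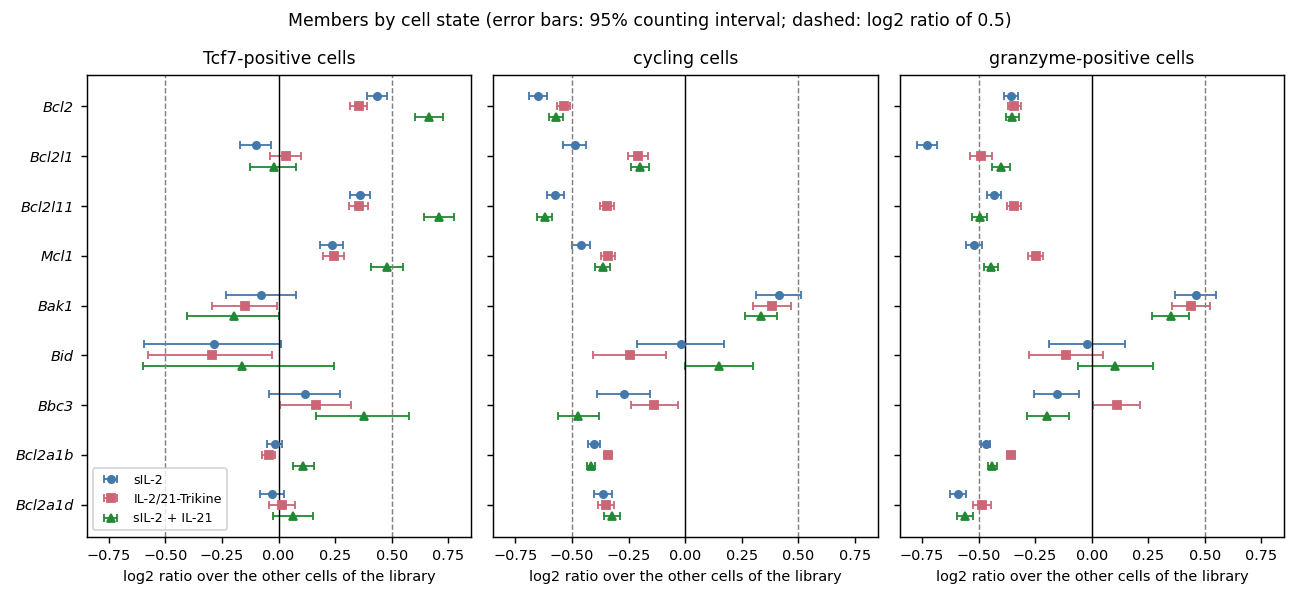
Log2 ratio (x axis) of 9 members (rows) in Tcf7-positive, cycling and granzyme-positive cells over the other cells of the same library; points are the 3 libraries, error bars 95% counting intervals and dashed lines log2 ratios of 0.5 in either direction. *Bcl2*, *Bcl2l11* and *Mcl1* were higher in Tcf7-positive cells and lower in both other states in each library, and *Bak1* was higher in cycling and granzyme-positive cells.

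Granzyme-positive cells, which also held more UMIs per cell, had lower levels as CPM of *Bcl2l1* and *Bcl2a1d*. These were the members with the largest mean log2 ratios over the 3 libraries (-0.54 and -0.55). *Bcl2l1* was at 115, 89.4 and 117 CPM in these cells of the sIL-2, Trikine and sIL-2 + IL-21 libraries against 189.9, 125 and 154 CPM in the others, log2 ratios of -0.73 (-0.77 to -0.68), -0.49 (-0.54 to -0.44) and -0.40 (-0.44 to -0.36). *Bcl2a1d* was at 188, 133 and 143 CPM against 284, 186 and 211 CPM, ratios of -0.59, -0.49 and -0.56. These came closest to the fold without passing it in each library. *Bcl2a1b* had ratios of -0.47, -0.36 and -0.44, *Mcl1* of -0.52, -0.25 and -0.45, and *Bcl2l11* of -0.43, -0.34 and -0.50. *Bcl2* had nearly the same ratio in each library, -0.36, -0.34 and -0.35. None of the 9 members was past the fold in all 3 libraries, where 2.37% of all genes were higher and 3.64% lower.

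*Bak1* was again higher, at 37.4, 34.9 and 39.3 CPM in granzyme-positive cells against 27.2, 25.8 and 30.9 CPM, with log2 ratios of 0.46, 0.44 and 0.35. *Bid*, whose protein granzyme B is known to cleave, had ratios of -0.02, -0.11 and 0.10 with intervals that reached 0 in each library. The ratio of *Bbc3* had an interval below 0 in the sIL-2 and sIL-2 + IL-21 libraries and above 0 in the Trikine library. Holding depth equal changed some members and not others. Within bins of UMIs per cell, the mean ratio of *Bcl2* was -0.02 in place of -0.35, and that of *Bcl2l11* -0.14 in place of -0.42. *Bcl2l1* was at -0.62 in place of -0.54, *Bcl2a1d* at -0.55 in both, and *Bak1* at 0.30 in place of 0.42. With the state set by at least 3 UMIs of *Gzmb* alone, *Bcl2l1* was at -0.10.

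**Figure D3:**
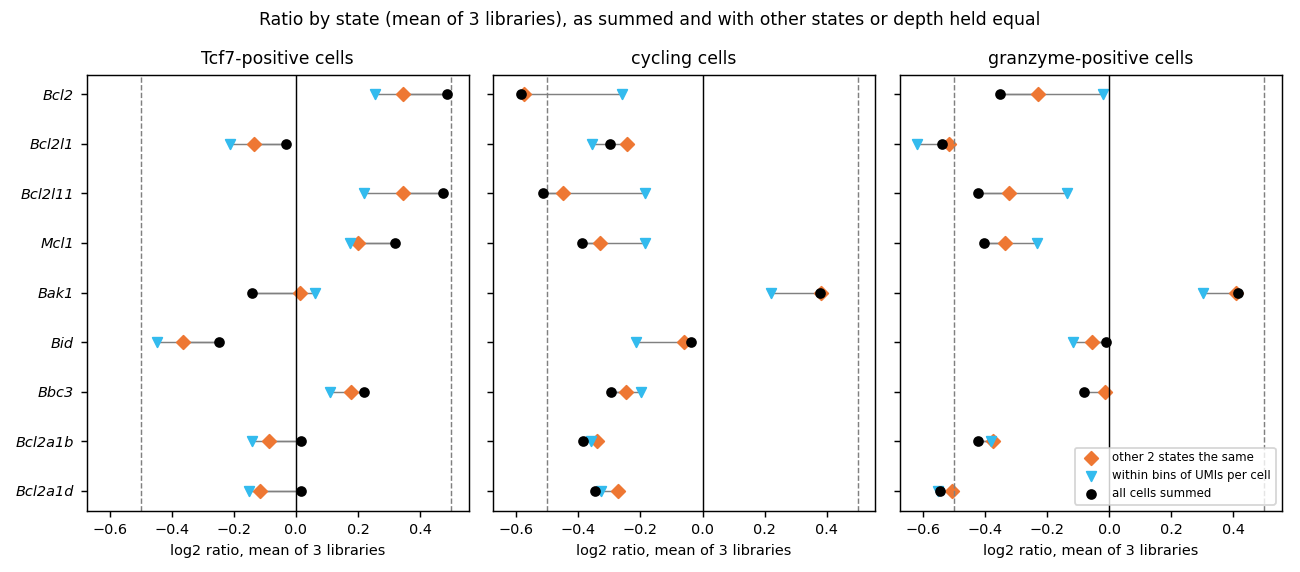
Mean over the 3 libraries of the log2 ratio between a state and the other cells (x axis) for 9 members (rows); black circles sum all cells, orange diamonds hold the other 2 states equal and blue triangles hold UMIs per cell equal in bins, with dashed lines at log2 ratios of 0.5. In granzyme-positive cells *Bcl2* went from -0.35 to -0.02 within bins while *Bcl2l1* and *Bcl2a1d* stayed at -0.62 and -0.55; *Bbc3* has no bin value there because a bin held no UMI of it on one side.

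Splitting the cells by all 3 states at once showed how the states added up. Of the 24 profiles (3 libraries by 8 combinations), 21 held at least 50 cells. *Bcl2* was highest in cells that were Tcf7-positive and neither cycling nor granzyme-positive, and there the libraries differed little. It was at 420.2 CPM (407 to 434) with sIL-2, 415 CPM (403 to 427) with Trikine and 434 CPM (412 to 456) with sIL-2 + IL-21, with overlapping intervals. In cells of none of the 3 states it was at 335, 334 and 286 CPM. It was lowest in cells both cycling and granzyme-positive, at 194, 206 and 173 CPM.

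*Bcl2l11* ran from 385 CPM in Tcf7-positive, otherwise negative cells of the sIL-2 library to 138 CPM in cycling, granzyme-positive cells of the sIL-2 + IL-21 library. *Mcl1* had its highest and lowest values, 307 and 155 CPM, in the same profiles as *Bcl2l11*. *Bcl2l1* and *Bcl2a1d* were instead highest, at 202 and 297 CPM, in sIL-2 cells of none of the states, and lowest, at 85.1 and 123 CPM, in cycling, granzyme-positive cells of the Trikine library. *Bak1* ran from 22.5 CPM in Tcf7-positive, otherwise negative Trikine cells to 42.8 CPM in cycling, granzyme-positive sIL-2 cells.

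**Figure D4:**
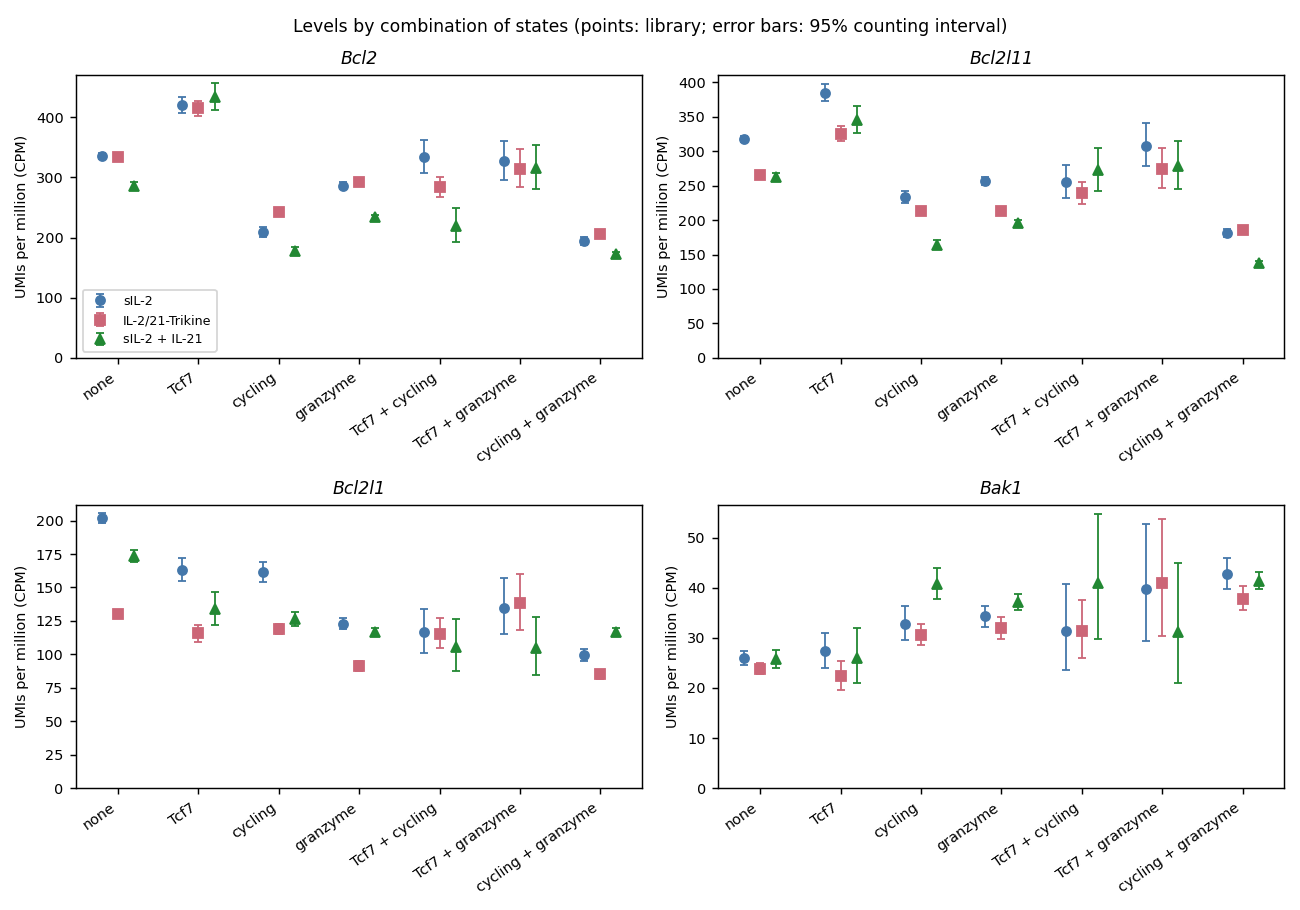
Levels of *Bcl2*, *Bcl2l11*, *Bcl2l1* and *Bak1* (y axes, CPM, from 0) by combination of the Tcf7-positive, cycling and granzyme-positive states (x axes, naming the states a cell is positive for) for the 21 profiles with at least 50 cells; points are the 3 libraries and error bars 95% counting intervals. *Bcl2* lay between 415 and 434 CPM in all libraries in cells positive for Tcf7 alone, and between 173 and 206 CPM in cycling, granzyme-positive cells.

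To hold the mix of the 8 combinations the same, log2 ratios were taken within each combination and averaged, weighted by its cells in all libraries. Only cells with at least 2000 UMIs entered, while the summed ratios include all cells. Combinations were weighted by cells, while in sums cells with more UMIs weigh more. How much of any change comes from the mix, the cells or the weights was not tested. With this same mix, the gaps between libraries narrowed for several members. The sIL-2 + IL-21 to sIL-2 log2 ratio went from -0.44 to -0.22 for *Bcl2*, from -0.57 to -0.32 for *Bcl2l11*, from -0.37 to -0.17 for *Mcl1* and from 0.24 to 0.04 for *Bak1*. For *Bcl2a1d* it went from -0.59 to -0.38, and for *Bcl2a1b* from -0.19 to 0.01, so that no member was past the fold. The Trikine to sIL-2 ratios moved less, *Bcl2l1* standing at -0.50, *Bcl2a1d* at -0.53 and *Bbc3* at -0.43. Between Trikine and sIL-2 + IL-21, *Bcl2* went from 0.43 to 0.24 and *Bcl2l11* from 0.34 to 0.11. *Mcl1* went from 0.20 to 0.03 and *Bak1* from -0.35 to -0.17. *Bcl2a1b* and *Bcl2a1d* changed sign, from 0.13 to -0.03 and from 0.03 to -0.16. The gap widened for *Bcl2l1* (-0.17 to -0.35), *Bbc3* (-0.30 to -0.40) and *Bid* (0.03 to 0.13).

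**Figure D5:**
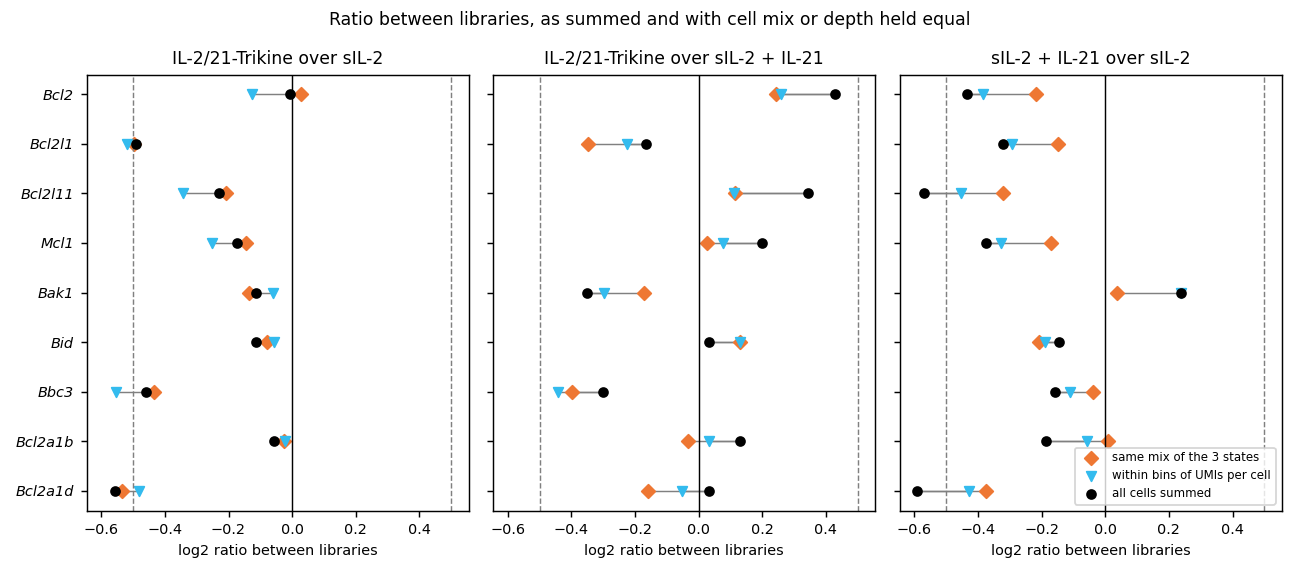
Log2 ratio between libraries (x axis) of 9 members (rows) for each pair of libraries. Black circles sum all cells, and dashed lines are at log2 ratios of 0.5. Orange diamonds average the ratios within the 8 state combinations (same mix), and blue triangles those within bins of UMIs per cell. Diamonds and triangles use only cells with at least 2000 UMIs. The sIL-2 + IL-21 to sIL-2 ratio of *Bak1* went from 0.24 to 0.04 with the same mix, while the Trikine to sIL-2 ratios of *Bcl2l1* and *Bcl2a1d* stood at -0.50 and -0.53.

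Over the 21 profiles, pairs of members varied together to differing degrees, given here as Pearson's r of log2(CPM + 5). This is a description only, since profiles of one library share cells' handling, depth and scaling, and no clustering was run. *Bcl2l11* and *Mcl1* had r = 0.95, *Bcl2* and *Bcl2l11* 0.90 and *Bcl2* and *Mcl1* 0.84. *Bcl2l1* went with *Bcl2a1d* (0.83), and less with *Bcl2* (0.34). The members did not separate cleanly, as *Bcl2a1b* had r of 0.68 with *Bcl2*, 0.73 with *Bcl2l11* and 0.79 with *Mcl1*. Its r was 0.72 with *Bcl2l1* and 0.71 with *Bcl2a1d*. *Bak1* ran against *Bcl2a1b* (-0.77) and *Bcl2* (-0.73). Among 5498 genes at 20 CPM or more, those most like *Bcl2* were *2410006H16Rik* (0.96), *Dennd2d* (0.96) and *Trim12a* (0.95), and those most like *Bcl2l11* were *Parp8* (0.98), *Tnrc6b* (0.98) and *Clint1* (0.97). *Mcl1* had *Clint1* (0.97), *Tnrc6b* (0.96) and the member *Bcl2l11*. *Bcl2l1* was most like *Sytl3*, *Csrnp1* and *Nfkb1* (0.86 to 0.87), *Bcl2a1b* like *Dnajb9*, *Tagap* and *Ndfip1* (0.91 to 0.92), and *Bcl2a1d* like *Pitpnm2*, *Nr4a1* and *Spag9* (0.92 to 0.94). *Bak1* was most like *Gnai2*, *Wdr1* and *Gnb1* (0.87 to 0.89), and *Bbc3* like *Relch*, *Dap* and *Glud1* (0.81 to 0.84).

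The balance of a survival gene to a death gene was read as the log2 ratio of their UMIs, each summed over the same group of cells. No ratio was taken within single cells. This log2 ratio depends in absolute value on capture and is compared only between libraries and states. For *Bcl2* to *Bcl2l11* it was 0.10 (0.07 to 0.12) in the sIL-2 library, 0.32 (0.30 to 0.34) in the Trikine library and 0.23 (0.21 to 0.25) in the sIL-2 + IL-21 library. It was 0.16, 0.30 and 0.19 in Tcf7-positive cells and 0.14, 0.30 and 0.28 in granzyme-positive cells, the Trikine library having the highest value in each, though its interval overlapped that of sIL-2 + IL-21. In cycling cells it was 0.03, 0.17 and 0.26, and there the sIL-2 + IL-21 library was highest. For *Bcl2* to *Bak1* the states differed far more. It was 3.72, 3.80 and 3.42 in Tcf7-positive cells and 2.44, 2.76 and 2.08 in cycling cells, and the whole libraries stood at 3.28 (3.23 to 3.33), 3.38 (3.34 to 3.43) and 2.60 (2.57 to 2.64). The order of libraries depended on the pair. *Bcl2* to *Bbc3* stood at 3.44, 3.89 and 3.16 over the whole libraries, again highest with Trikine. *Mcl1* to *Bcl2l11* stood at -0.19, -0.13 and 0.01 and was highest with sIL-2 + IL-21. *Bcl2l1* to *Bak1* stood at 2.38, 2.01 and 1.82 and was highest with sIL-2.

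The promoters of the members were searched for the FOXO motif GTAAACA, the STAT motif TTCNNNGAA and the NF-kB site of the immunoglobulin kappa enhancer on both strands, since factors of these families are known regulators of the members. The windows ran from 250 bases before to 50 bases after each RefSeq start site. Of 32851 such windows, 3.65% held the FOXO, 8.30% the STAT and 0.155% the NF-kB letters. The FOXO letters occurred once at the first start site of *Bcl2l11*, 227 bases upstream, and once, on the other strand, at the second start site of *Bbc3*, 167 bases upstream. None of the windows of the other members held any of the 3 motifs, which says only that these letters are not in these windows. The upstream 250 bases of both are shown because they carry the only matches, with the match in capitals, from chr2:128125788-128126037 and chr7:16310011-16310260 (GRCm38.p6, plus strand).
Bcl2l11: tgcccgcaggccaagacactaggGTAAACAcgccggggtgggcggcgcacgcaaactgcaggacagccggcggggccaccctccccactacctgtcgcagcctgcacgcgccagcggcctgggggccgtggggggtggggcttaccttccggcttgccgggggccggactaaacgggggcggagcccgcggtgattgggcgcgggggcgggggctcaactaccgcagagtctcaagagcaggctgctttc
Bbc3: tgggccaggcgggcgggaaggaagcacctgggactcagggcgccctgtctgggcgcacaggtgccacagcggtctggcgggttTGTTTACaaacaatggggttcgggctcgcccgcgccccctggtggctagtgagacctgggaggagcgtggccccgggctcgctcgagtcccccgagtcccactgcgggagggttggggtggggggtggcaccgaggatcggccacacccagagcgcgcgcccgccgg

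The other genes of the pathway were taken from 4 lists. Beside the counts below, 2.88% of all genes were past the fold higher and 5.81% lower for Trikine to sIL-2. The shares were 3.51% and 3.58% for Trikine to sIL-2 + IL-21, and 5.79% and 10.1% for sIL-2 + IL-21 to sIL-2. Counts from lists this short were not tested against these shares. Of 15 further BCL2 family genes, 7 were at 5 CPM or more. Of these, 2 were past the fold below sIL-2 with Trikine, 1 below sIL-2 + IL-21 with Trikine and 1 above sIL-2 with sIL-2 + IL-21. The mitophagy receptor gene *Bnip3* was at 67.3, 36.8 and 77.5 CPM in the sIL-2, Trikine and sIL-2 + IL-21 libraries, past the fold below both others in the Trikine library (-0.87 and -1.08), and was higher in granzyme-positive cells by 0.88, 0.68 and 1.13. *Pmaip1*, which encodes the BH3-only protein NOXA, was lower with Trikine than with sIL-2 (-0.52), and *Bcl2l12* was higher with sIL-2 + IL-21 than with sIL-2 (0.51). *Bax* was not past the fold in any comparison.

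Of 17 genes of caspases, their activators and their inhibitors, 16 were at 5 CPM or more. *Birc5*, the gene for survivin, which has a role in mitosis, was higher with Trikine (0.58) and with sIL-2 + IL-21 (1.07) than with sIL-2. It was past the fold above the other cells in cycling cells (4.59, 3.93 and 2.63) and in granzyme-positive cells (1.33, 0.89 and 0.56). *Htra2*, the gene for a mitochondrial protease, and *Aifm1* were also past the fold in cycling cells, by 1.05, 0.90 and 0.65 and by 0.54, 0.50 and 0.51.

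Of 11 genes of death and TNF receptors, their ligands and their signaling, 10 were at 5 CPM or more. With Trikine 2 were past the fold below sIL-2 and 1 above sIL-2 + IL-21, and 3 were lower with sIL-2 + IL-21 than with sIL-2. *Cflar*, whose product blocks caspase-8, was at 122, 83.6 and 76.5 CPM and past the fold below sIL-2 with Trikine (-0.55) and with sIL-2 + IL-21 (-0.68), as was the TNF receptor gene *Tnfrsf1b* (-0.56 and -0.73). *Tnfrsf10b* was lower with sIL-2 + IL-21 than with sIL-2 (-0.55). *Fas* was higher with Trikine than with sIL-2 + IL-21 (0.56) and lower in granzyme-positive cells (-0.93, -0.52 and -0.90). *Fasl* was at 131, 115 and 94.3 CPM and, with *Cflar* and *Tnfrsf1b*, past the fold below the other cells in cycling cells. *Casp8* was at 90.7, 76.1 and 74.6 CPM, with log2 ratios between -0.11 and 0.08 in every state.

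Of 17 upstream regulators, 16 could be matched to a single gene and all 16 were at 5 CPM or more. With Trikine 1 was past the fold above and 4 below sIL-2, and 2 were above sIL-2 + IL-21. With sIL-2 + IL-21, 5 were lower than with sIL-2 and none was higher, beside 10.1% and 5.79% of all genes. *Foxo3*, which encodes a FOXO factor known to induce *Bcl2l11* and *Bbc3*, was at 30.2, 25.0 and 18.5 CPM, lower with sIL-2 + IL-21 than with sIL-2 (-0.71), and lower in granzyme-positive cells (-0.77, -0.59 and -0.53). The survival kinase genes *Pim1* and *Pim2* differed. *Pim1* was highest with sIL-2 (542, 372 and 352 CPM), and *Pim2* was highest with Trikine (28.2, 40.5 and 21.7 CPM). *Pim2* and the IL-7 receptor gene *Il7r* were past the fold in Tcf7-positive cells, where *Il7r* was higher by 0.55, 0.63 and 0.90. *Socs3*, *Fbxw7* and the IL-2 receptor gene *Il2rb* were lower with Trikine than with sIL-2, by log2 ratios of -0.85, -0.54 and -0.60. They were also lower with sIL-2 + IL-21 than with sIL-2, by -0.68, -0.70 and -0.30, so all were highest with sIL-2. *Myc* was at 105, 108 and 67.6 CPM, lower with sIL-2 + IL-21 than with sIL-2 (-0.63) and higher with Trikine than with sIL-2 + IL-21 (0.68). It was lower in cycling and granzyme-positive cells, and *Il21r* was lower in granzyme-positive cells. *Dynll2*, whose product is known to tether BMF, was higher in cycling cells by 0.64, 0.66 and 0.69.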

How the data were processed

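Tumor-infiltrating T cells were profiled by droplet single-cell RNA-seq with a 3' UMI chemistry, 1 library for each of 3 treatments. Per the study's methods the authors counted UMIs with Cell Ranger against the GRCm39 mouse reference, introns included, whereas the submitters' processing notes name mm10, so no coordinate of the count files was used. The deposited matrices hold counts of UMIs per gene and cell, not normalized, for the cells the software called. These counts were filtered by the study's limits (500 to 120000 UMIs, at most 20% mitochondrial) and summed per library or state. No doublet caller was run and no cell types were named.

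Sums were divided by the total to give CPM, with exact Poisson intervals for levels and exact conditional binomial intervals for ratios, at 95%. Depth was 130200802 to 168041089 UMIs per library. States were set on cells thinned to 2000 UMIs (seed 1). Past the fold meant an absolute log2 ratio of at least 0.5 (for a state, in the same direction in each of the 3 libraries) over genes at 5 CPM or more. The study's tests over cells were not repeated, since cells are not replicates. The members, gene lists and thresholds were chosen with earlier results of these data known. Named genes were the 10 members, the 3 genes most like each member at 20 CPM or more, and pathway genes past the fold, with *Bax*, *Casp8* and *Fasl* always named. *Ddit3*, present under more than 1 identifier, was left out. Some genes of the caspase list that met this rule are not reported here. Alternatives covered scaling, cell filters, thinning, equal weight of cells, thresholds of the states, an equal mix of states, and the gene minimum. Bins of UMIs per cell (bounds 5000, 10000, 20000 and 40000 above the minimum of 2000) and the sum of the A1 copies were added after the data were seen.

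Scripts were tested on simulated data and run with Python 3.11.15, numpy 2.4.6, scipy 1.17.1, pandas 2.3.3, matplotlib 3.10.9 and Biopython 1.88. Promoter sequences are from RefSeq (GRCm38.p6), and transcripts of the A1 copies from GENCODE.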

Additional observations from a re-analysis of the deposited data

Results flagged for a closer look

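The difference of *Bbc3* (PUMA) between granzyme-positive and other cells had opposite signs in different libraries. Its log2 ratio was 0.11 in the Trikine library, with an interval of 0.01 to 0.21, and -0.16 and -0.20 in the sIL-2 and sIL-2 + IL-21 libraries. *Bcl2a1b* likewise had a log2 ratio of 0.11 between Tcf7-positive and other cells in the sIL-2 + IL-21 library and of -0.044 in the Trikine library. Neither difference between libraries was tested, since each treatment was 1 library.

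The 266, 1775 and 364 cells under 2000 UMIs, which entered no split by state, had higher levels of some members than their whole library. For 3 members the counting interval lay above the level of the whole library in each of the 3 libraries. The share of all genes raised as much in these cells was not computed, so the values are not read as particular to the members. *Bcl2* was at 1113, 881 and 932 CPM in these cells of the sIL-2, Trikine and sIL-2 + IL-21 libraries, log2 ratios to the whole library of 1.89, 1.55 and 2.07. For *Bcl2l1* the ratios were 1.31, 1.31 and 1.99, and for *Bcl2l11* they were 1.18, 0.91 and 1.26. *Mcl1* was higher there too, at 305, 298 and 202 CPM against 247, 219 and 191 CPM. Its interval in the sIL-2 + IL-21 library (158 to 254) held the level of the whole library. *Bcl2a1b* was instead lower there, at 346, 254 and 224 CPM against 661, 635 and 580.2 CPM. These cells had medians of 1144, 875 and 844 UMIs, and mitochondrial shares with medians of 4.56%, 1.45% and 9.31%.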

How the results depend on the processing

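No paired analysis was possible because each treatment had 1 library and no result comes from a test, and for the same reason no library could be left out. In 405 of 650 repeated values the result stayed within its counting interval, within 1 SD over the libraries for a state, or within 1.5 times for a count or share, 244 moved further, and 1 that was past the fold changed sign (*Bmf*, Trikine to sIL-2, 0.38 when cells were thinned to 2000 UMIs). Of the 24 genes named as most like a member by Pearson's r, 12 were also among the first 3 by Spearman's rho. Members past the fold between Trikine and sIL-2 numbered 0 with median-of-ratios scaling or without the 100 most abundant genes, 2 with equal weight of cells, stricter cell limits, thinned cells or bins of UMIs, and 3 without the 5% of cells with most UMIs, in place of 1. With thinned cells and in bins, *Bcl2a1d* fell short of the fold, at -0.48 in both. The members past it there were *Bcl2l1* (-0.54 and -0.52) and *Bbc3* (-0.65 and -0.55). Between Trikine and sIL-2 + IL-21, 1 (*Bbc3*) passed with equal weight of cells or thinned cells. Between sIL-2 + IL-21 and sIL-2, 1 passed with median-of-ratios scaling and 0 with equal weight, thinning, the same mix of states or bins. In cycling cells *Bcl2* no longer passed in every library, leaving 0, with states set on all UMIs, without the deepest 5% of cells, with limits of 2 or 8 UMIs, with the other states held equal, or in bins. In granzyme-positive cells 1 passed (*Bcl2a1d*) without the deepest 5% of cells and with a limit of 10 UMIs. Shares of all genes past the fold moved, between Trikine and sIL-2, from 8.69% to 13.6% in bins. With the same mix of states they went from 7.09% to 4.13% between Trikine and sIL-2 + IL-21, and from 15.9% to 7.41% between sIL-2 + IL-21 and sIL-2. For Tcf7-positive cells the share was 2.81%, against 1.43% with all UMIs, 8.17% with at least 2 UMIs of *Tcf7* and 1.63% with the other states equal. For granzyme-positive cells it was 6.01%, against 9.43% with all UMIs, 10.1% with equal weight of cells and 1.94% with *Gzmb* alone. Where the construction itself does not show it, the cause was not tested. Higher genes made up 49.5% of those past the fold between Trikine and sIL-2 + IL-21, against 39.3% with the same mix, 37.6% with thinned cells and 36.9% in bins. At 28 to 41 UMIs per library, *Bmf* was beyond what this depth can order.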

Other observations

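In the few cells that carried myeloid markers, *Mcl1* and *Bcl2a1b* stood above the cells with neither myeloid nor melanoma markers in all 3 libraries. *Mcl1* was at 888 CPM (763 to 1028) over 17 such cells of the sIL-2 library, against 246 CPM in the others. That interval counts pooled UMIs and does not cover the spread between these few cells. The corresponding levels were 344 and 217 CPM in the Trikine library (40 cells) and 325 and 191 CPM in the sIL-2 + IL-21 library (17 cells). *Bcl2a1b* was at 854, 860.4 and 851 CPM in these cells against 662, 638 and 581 CPM. *Bcl2l11* (286 against 281 CPM) and *Bak1* (34.5 against 31.1 CPM) of the sIL-2 library lay within counting error. Leaving out the cells with myeloid or melanoma markers did not change any count of members past the fold between libraries.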
